A study of Danio rerio with 24 samples.

Results

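The genes described here drive DNA replication and cell division. They are 40 gene symbols chosen by name, with earlier results of these data known. They matched 41 gene identifiers in the count table, because rrm2 is the symbol of 2 identifiers, on chromosome 19 and chromosome 20. All 41 had enough counts to be tested, of 22340 tested genes and 23219 genes in the table. By role, 13 act at replication origins (mcm2 to mcm7, mcm10, cdc6, cdt1, orc1, cdc45, gins1 and gins2). A group of 5 supplies nucleotides or packs new DNA into chromatin (tk1, rrm1, both rrm2 genes and chaf1b), and 5 regulate G1 and the start of S phase (ccnd1, ccne1, ccne2, cdk2 and e2f1). Entry into mitosis is covered by 7 genes (cdk1, ccna2, ccnb1, ccnb2, aurka, plk1 and wee1), and the spindle, the chromosomes or the mitotic checkpoint by 11 (mki67, top2a, cenpe, bub1, mad2l1, cdc20, aurkb, birc5a, kif11, kif23 and tpx2). For the comparison of S phase with mitosis, 21 genes formed the S phase set, namely all origin and nucleotide genes with ccne1, ccne2 and e2f1. The mitosis set held 17 genes, and ccnd1, cdk2 and wee1 were in neither.

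In a dividing cell, CDC6, CDT1 and the origin recognition complex load the ring of MCM subunits 2 to 7 onto DNA in G1, and CDC45 and the GINS complex turn that ring into the active helicase at the start of S phase. Cyclin E with CDK2 triggers the start of S phase, and cyclin B with CDK1 drives mitosis, which the kinase WEE1 holds back. In the vertebrate embryo proliferation is widespread early and becomes restricted to progenitor zones as tissues differentiate. After ultraviolet damage, p53 induces cdkn1a, whose product p21 inhibits cyclin-dependent kinases.

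The libraries came from whole zebrafish embryos kept in the dark, which received UVB or a mock exposure at 24 h post fertilisation (hpf). Meevs names offspring of mothers mutant for eevs, the gene of an enzyme in the synthesis of the sunscreen compound gadusol, and these were compared with wild type embryos. In order, the 8 groups of 3 libraries were Meevs UVB, Meevs mock, wild type UVB and wild type mock, each collected 5 h after exposure (29 hpf) and 24 h after exposure (48 hpf). The labels give the dose as 450 J with no area and do not name a clutch for any replicate. The p-values therefore cover no more than the spread among these libraries, and that spread may be technical.

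Total counts lay between 22395870 and 44691629 per library, and counts of the 41 genes lay between 90 and 50702. Genotype and the library series named in the descriptions coincide and cannot be told apart. On principal components of all genes, 4 libraries lay apart from their replicates: Meevs UVB replicate 3 at 24 h, Meevs mock replicate 3 at 5 h, wild type UVB replicate 1 at 24 h and wild type UVB replicate 3 at 5 h. Levels are CPM, read counts scaled to a fixed library total, with TMM-scaled library sizes, and they are compared between samples and not between genes, because gene lengths were not used. Log2 fold changes are given ± SE from an edgeR quasi-likelihood fit of all 24 libraries, and a gene was called at a Benjamini-Hochberg adjusted p under 0.05 over all tested genes. In whole embryos, fewer dividing cells and less RNA per cell cannot be told apart.

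Between 29 and 48 hpf the whole set fell. In mock embryos all 41 genes were lower at 48 hpf, both in Meevs, where 31.5% of all tested genes were called lower, and in wild type, where 33.5% were. The median log2 change of the 41 genes was -0.97 in Meevs mock embryos and -0.95 in wild type mock embryos, against -0.04 over all tested genes in both. After UVB, 41 of 41 genes were lower at 48 hpf in Meevs (33.8% of all genes) and 40 of 41 in wild type (34.4% of all genes). The exception was tk1, at -0.14 ± 0.07 with an edgeR adjusted p of 0.0557. It was called lower by DESeq2 (-0.15, adjusted p 0.0418) and by edgeR with DESeq2 size factors (-0.15, adjusted p 0.0463).

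The deepest falls were at replication origins. The gene mcm10, whose product helps to start DNA synthesis at the origin (ENSDARG00000045815, GRCz11 chromosome 4, 7851129 to 7869731), had 10.1, 10.8 and 10.5 CPM at 48 hpf in Meevs mock embryos, against 29.8, 29.6 and 27.1 CPM at 29 hpf. In wild type mock embryos it had 7.55, 9.72 and 8.24 CPM at 48 hpf, against 25.4, 27.2 and 29.3 CPM at 29 hpf. No library of one time overlapped those of the other, and the log2 changes were -1.46 ± 0.11 in Meevs and -1.68 ± 0.11 in wild type (edgeR adjusted p 5.42e-12 and 2.35e-13). The helicase subunit gene mcm2 (ENSDARG00000102798, chromosome 22, 5632029 to 5655680) had 183, 169 and 172 CPM at 48 hpf in Meevs mock embryos, against 462, 456 and 465 CPM at 29 hpf. Its wild type mock levels were 142, 166 and 143 CPM at 48 hpf, against 403, 394 and 394 CPM at 29 hpf. The times were again far apart, with log2 changes of -1.40 ± 0.09 in both genotypes. The loading factors cdc6 (-1.40 ± 0.09 in Meevs mock, -1.45 ± 0.09 in wild type mock) and cdt1 (-1.38 ± 0.09 and -1.49 ± 0.09) and the subunit gene mcm3 (-1.44 ± 0.08 and -1.43 ± 0.08) fell by a similar amount. Of the 13 origin genes mcm7 fell least, with log2 changes of -1.001 in Meevs mock embryos and -1.058 in wild type mock embryos.

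Genes of mitosis fell less. The kinase gene cdk1 (ENSDARG00000087554, chromosome 17, 20923691 to 20929461) had 113, 111 and 106 CPM at 48 hpf in Meevs mock embryos, against 148, 153 and 174 CPM at 29 hpf. Its wild type mock levels were 76.9, 76.0 and 88.4 CPM at 48 hpf, against 117, 121 and 125 CPM at 29 hpf. The times did not overlap, but the log2 changes were only -0.53 ± 0.07 in Meevs and -0.59 ± 0.07 in wild type. The mitosis gene that fell most in mock embryos was ccnb1, which encodes a cyclin B (-0.97 ± 0.08 in Meevs, -0.99 ± 0.08 in wild type). In Meevs it was followed by ccna2, for cyclin A2 (-0.94 ± 0.08), and cenpe, a kinetochore motor gene (-0.93 ± 0.08). In wild type it was followed by the mitotic kinase genes plk1 (-0.95 ± 0.07) and aurka (-0.90 ± 0.08). The smallest falls were those of birc5a, for the survivin subunit of the chromosomal passenger complex (-0.34 ± 0.10 and -0.43 ± 0.10), and kif23, for a motor of the central spindle (-0.41 ± 0.06 and -0.50 ± 0.06). Without Meevs mock replicate 3 at 5 h the fall of birc5a in Meevs was -0.15 and was not called (adjusted p 0.159).

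The S phase and mitosis sets therefore separated by the size of the fall. In mock embryos the median log2 change of the 21 S phase genes was -1.21 in Meevs and -1.30 in wild type, which leaves 0.433 and 0.405 of the 29 hpf level. That of the 17 mitosis genes was -0.72 in Meevs and -0.74 in wild type, which leaves 0.606 and 0.598. In each genotype, 18 of the 21 S phase genes fell further than every mitosis gene in mock embryos, and the others were ccne1, tk1 and e2f1. After UVB this held for 18 of 21 in wild type, but for 10 of 21 in Meevs. The count rests on the lowest mitosis gene, which in Meevs was mki67, at a fall of 1.17 on the log2 scale. The medians after UVB stayed apart in both genotypes. They were -1.13 for S phase and -0.63 for mitosis in Meevs, and -1.14 and -0.67 in wild type. The difference between the sets was described and not tested.

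**Figure D1:**
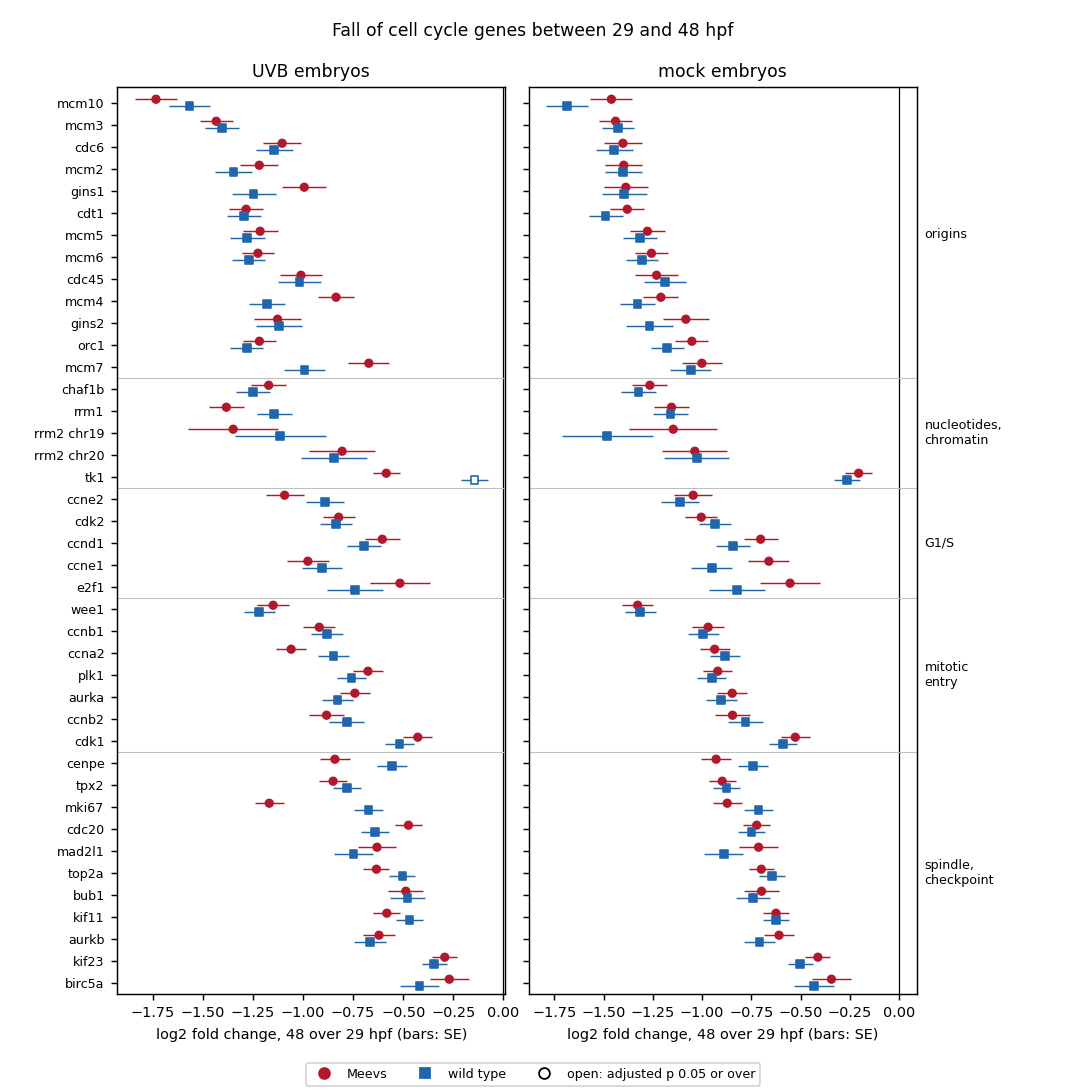
Log2 fold change of each gene at 48 over 29 hpf (x axis) with its SE, UVB embryos at the left and mock embryos at the right, Meevs as red circles and wild type as blue squares; genes run down the page by role. All points lie below 0, origin genes mostly lie below -1, mitosis genes mostly above -1, and tk1 in wild type UVB embryos is the one open, uncalled point.

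The gene wee1 (ENSDARG00000093864, chromosome 18, 16918426 to 16924221), which encodes the kinase that delays mitosis, fell by an amount within the range of the origin genes. It had 29.6, 32.8 and 29.7 CPM at 48 hpf in Meevs mock embryos, against 74.3, 82.5 and 74.5 CPM at 29 hpf. Wild type mock embryos had 26.9, 28.9 and 31.2 CPM at 48 hpf, against 68.4, 74.4 and 73.6 CPM at 29 hpf. The times did not overlap, and the log2 changes were -1.33 ± 0.08 and -1.31 ± 0.08. The cyclin D1 gene ccnd1 (ENSDARG00000101637, chromosome 7, 54668303 to 54679595), which acts in G1, had 261, 235 and 247 CPM at 48 hpf in Meevs mock embryos, against 369, 399 and 441 CPM at 29 hpf. In wild type mock embryos the levels were 287, 312 and 306 CPM at 48 hpf, against 501, 565 and 557 CPM at 29 hpf. Both pairs of groups were separate, at -0.70 ± 0.09 in Meevs and -0.84 ± 0.09 in wild type. The third gene outside both sets, cdk2, fell by 1.004 ± 0.08 on the log2 scale in Meevs mock embryos and by 0.94 ± 0.08 in wild type mock embryos.

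The gene tk1 (ENSDARG00000102245, chromosome 11, 45153104 to 45158056), for the thymidine kinase of the nucleotide salvage pathway, fell least of the 41 in mock embryos. It had 44.2, 41.9 and 45.5 CPM at 48 hpf in Meevs mock embryos, against 55.0, 50.6 and 45.8 CPM at 29 hpf. In wild type mock embryos it had 42.8, 45.2 and 43.9 CPM at 48 hpf, against 50.1, 52.8 and 55.5 CPM at 29 hpf. The times did not overlap in either genotype (although the Meevs groups nearly touched), and the log2 changes were -0.21 ± 0.07 in Meevs (adjusted p 0.0112) and -0.26 ± 0.07 in wild type (adjusted p 0.00120). The call in Meevs was lost without Meevs mock replicate 1 at 5 h (adjusted p 0.109), Meevs mock replicate 1 or 2 at 24 h (0.0815 and 0.0636) or Meevs UVB replicate 2 or 3 at 5 h (0.0507 and 0.0504), and with only the compared groups in the fit (0.0938).

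The decline did not differ between genotypes beyond the spread in mock embryos. Of the 41 genes none was called for a difference of the time effect, DESeq2 called none, and 0.00895% of all tested genes were called. None of the 41 had an unadjusted p under 0.05, beside 1613 of 22340 tested genes. The log2 differences, Meevs minus wild type, lay between -0.19 and 0.33, with SEs up to 0.32, so differences within that error were not detectable.

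Other genes of the same processes moved alike. Their lists were drawn up for this comparison with earlier results of these data known, so they are no independent support. Of all tested genes 31.5% were called lower in Meevs mock embryos and 33.5% in wild type mock embryos. Of 49 further replication genes, 48 were lower and 1 higher at 48 hpf in each genotype's mock embryos, with medians of -1.13 in Meevs and -1.19 in wild type. Among them the licensing inhibitor gene gmnn (geminin) fell by 1.63 ± 0.09 in Meevs and by 1.69 ± 0.10 in wild type. The gene uhrf1, whose product helps to copy DNA methylation onto new strands, fell by 1.29 ± 0.08 and 1.34 ± 0.08. Of 65 further mitosis genes, 62 were lower in Meevs and 63 in wild type, and none was called higher, with medians of -0.73 and -0.76. Here kif20a, a cytokinesis motor gene, fell by 1.05 ± 0.07 in Meevs and by 1.097 ± 0.07 in wild type. A list of 27 other cyclins, kinases and damage checkpoint genes had 20 lower in Meevs and 21 in wild type, with none called higher.

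Cell type markers, also listed with earlier results of these data known, changed at the same time, as did many other genes. Of 22340 tested genes, 6405 were called higher and 7039 lower in Meevs mock embryos, and 6749 and 7490 in wild type mock embryos. All 19 markers of postmitotic neurons were called higher at 48 hpf in mock embryos of each genotype, with median log2 changes of 1.51 in Meevs and 1.77 in wild type. Their summed level was 3554.1 to 3689.7 CPM at 48 hpf in Meevs mock libraries, against 1464.4 to 1709.9 CPM at 29 hpf. In wild type mock libraries it was 3604 to 3842 CPM at 48 hpf, against 1486.0 to 1599.6 CPM at 29 hpf. Of 19 neural progenitor markers, which include ccnd1, 14 were lower and 3 higher in Meevs, and 13 were lower and 3 higher in wild type. Of 15 skeletal muscle markers 9 were higher and 3 lower in Meevs, and 11 were higher and 3 lower in wild type. Of 8 germ cell markers none was higher, with 3 lower in Meevs and 4 in wild type. The part of these changes in the fall of the cell cycle genes was not tested.

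A summary per library places S phase beside mitosis. For each library the median was taken, over the genes of a set, of log2(CPM + 0.5) minus the gene's mean over the 24 libraries. The S phase value exceeded the mitosis value in all 12 libraries at 29 hpf and was below it in all 12 at 48 hpf. Because each gene was centred on its mean over both times, this switch of sign restates the larger S phase fall and is not a separate result. It does not compare the levels of the sets. At 48 hpf the difference, S phase minus mitosis, was -0.38 to -0.25 in Meevs UVB libraries and -0.27 to -0.14 in Meevs mock libraries. It was -0.34 to -0.18 in wild type UVB libraries and -0.28 to -0.03 in wild type mock libraries at that time. At 29 hpf it was 0.10 to 0.16 in Meevs UVB libraries, against 0.18 to 0.27 in Meevs mock libraries, without overlap. Wild type UVB libraries had 0.22 to 0.32, against 0.23 to 0.33 in wild type mock libraries, largely overlapping.

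**Figure D2:**
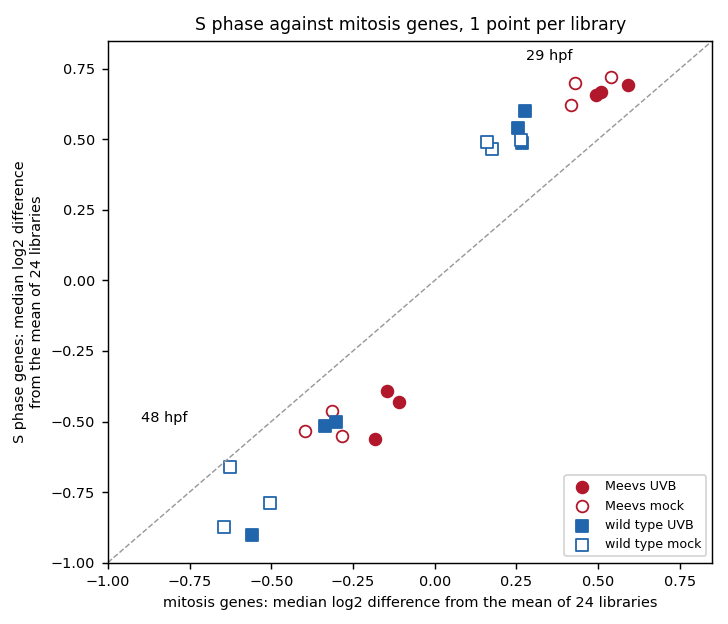
Each point is 1 library: the median log2 difference of the mitosis genes (x axis) and of the S phase genes (y axis) from their means over 24 libraries, with filled symbols for UVB, open for mock, red circles for Meevs and blue squares for wild type; the dashed line marks equal values. The 12 libraries at 29 hpf lie above the line and the 12 at 48 hpf below it, which follows from the centring and the larger S phase fall. Wild type UVB replicate 1 at 48 hpf lies with the wild type mock libraries and not with its replicates.

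At 5 h after exposure, UVB moved only some of these genes in Meevs embryos, in both directions. Of the 41, 9 were called higher and 1 lower, against 19.1% and 15.3% of all tested genes, so the share called, 24.4%, was below the 34.4% called among all tested genes. The balance of rises and falls depended on the libraries in the fit. With only the compared groups 5 were called higher and 5 lower, 6 of them shared with the 10 above, and the median of all tested genes moved by -0.05 on the log2 scale. Without the 4 libraries that stood apart 7 were higher and 3 lower. Of the mitosis set 6 of 17 were higher and none lower, and of the S phase set 3 of 21 were higher and 1 lower. The median log2 change was 0.05 for the S phase genes and 0.14 for the mitosis genes, against 0.05 over all tested genes and 0.11 over the 13840 tested genes whose span lies in the range of the 41.

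The gene that rose most was tk1, the thymidine kinase described above. It had 70.5, 69.5 and 69.7 CPM in Meevs UVB embryos at 29 hpf, against 55.0, 50.6 and 45.8 CPM in Meevs mock embryos. All 3 exposed libraries lay above all 3 mock libraries, with a log2 change of 0.47 ± 0.07 and an edgeR adjusted p of 4.16e-06. In wild type it had 52.1, 50.6 and 55.6 CPM after UVB, against 50.1, 52.8 and 55.5 CPM in mock embryos, and these groups overlapped fully (log2 change 0.00 ± 0.07). Of the 41 genes 2 were called for a larger UVB effect in Meevs than in wild type at 5 h and none for a smaller one, against 2.02% and 3.09% of all tested genes. For tk1 this difference was 0.47 ± 0.09 with an adjusted p of 0.00315, and the call held in each of the 24 fits that left out 1 library.

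Next stood mki67 (ENSDARG00000091150, chromosome 12, 10366617 to 10381282), the gene of the proliferation antigen Ki-67, which coats mitotic chromosomes. It had 1173, 1080.3 and 1109 CPM in Meevs UVB embryos at 29 hpf, against 826, 878 and 774 CPM in Meevs mock embryos. The groups were separate, with a log2 change of 0.44 ± 0.07 and an adjusted p of 2.5e-05. Wild type UVB embryos had 1121, 1089 and 1192 CPM, against 1068, 1056 and 1115 CPM in wild type mock embryos, which overlapped (0.07 ± 0.07). The Meevs mock libraries at 29 hpf were thus the low ones for this gene, and the Meevs UVB libraries stood in the range of wild type. The second called difference of the UVB effects was that of mki67, at 0.37 ± 0.10 with an adjusted p of 0.0308. That call was lost without Meevs UVB replicate 1, 2 or 3 at 5 h (adjusted p 0.147, 0.0763 and 0.0965), Meevs mock replicate 3 at 5 h (0.149), wild type UVB replicate 1 or 2 at 5 h (0.0532 and 0.0812) or wild type mock replicate 3 at 5 h (0.0817). It was also lost without Meevs UVB replicate 2 or 3 at 24 h (0.0600 and 0.0613) or Meevs mock replicate 1 or 3 at 24 h (0.0725 and 0.0723), and with only the compared groups in the fit (0.0960).

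Among the origin genes mcm10 and mcm4 went opposite ways in Meevs. The level of mcm10 was 36.2, 37.3 and 36.5 CPM in Meevs UVB embryos at 29 hpf, against 29.8, 29.6 and 27.1 CPM in Meevs mock embryos. Without overlap, it rose by 0.35 ± 0.10 on the log2 scale (adjusted p 0.00677), a call lost without Meevs UVB replicate 2 (adjusted p 0.0613) or Meevs mock replicate 3 (0.0863). In wild type it had 36.0, 31.6 and 30.4 CPM after UVB, against 25.4, 27.2 and 29.3 CPM in mock embryos, separate as well but at an adjusted p of 0.0792 (0.26 ± 0.10). The helicase subunit gene mcm4 (ENSDARG00000040041, chromosome 24, 35536664 to 35561672) had 263, 291 and 279.9 CPM in Meevs UVB embryos, against 336, 392 and 339 CPM in Meevs mock embryos. All exposed libraries were below all mock libraries, and mcm4 fell, at -0.36 ± 0.09 with an adjusted p of 0.00216. It was the 1 fall called with all libraries in the edgeR fit, against 2 with DESeq2 (mcm4 and mcm2). With only the compared groups mcm2, mcm5, gins1 and cdc6 were called lower beside it. Wild type UVB embryos had 357, 314 and 312 CPM, against 321, 307 and 361 CPM in mock embryos, which overlapped (-0.01 ± 0.09).

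The other subunits of the same ring had values on the side of mcm4 in Meevs but were not called with all libraries in the edgeR fit. All 6 of the mcm2 to mcm7 genes had log2 changes below 0 in Meevs at 5 h, between -0.36 and -0.05, while in wild type they lay between -0.01 and 0.12. The level of mcm2 was 392 CPM in each of the 3 Meevs UVB libraries, against 462, 456 and 465 CPM in Meevs mock libraries, separate but at an adjusted p of 0.0518 (-0.23 ± 0.09). It was called lower by DESeq2 (adjusted p 0.0429), with only the compared groups in the fit (-0.29, adjusted p 0.00405), without the 4 libraries that stood apart (-0.28, adjusted p 0.00682) and in 10 of the 24 fits that left out 1 library, among them that without Meevs mock replicate 3 (-0.28, adjusted p 0.0436). The subunit gene mcm5 was called lower with only the compared groups (-0.22, adjusted p 0.0213) and without the 4 libraries (-0.19, adjusted p 0.0394). For wild type the level of mcm2 was 466, 393 and 394 CPM after UVB, against 403, 394 and 394 CPM in mock embryos, a spread in which replicate 1 alone stood high. The difference between genotypes was negative for all 6 subunits, between -0.35 and -0.15, and was called for none of them. Without the 4 libraries that stood apart on the principal components it was called for mcm4 and mcm2, an alternative added after seeing the data.

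Nucleotide, cyclin and spindle genes made up the other rises in Meevs. The gene rrm1 (ENSDARG00000014017, chromosome 21, 30772043 to 30787414), for the large subunit of ribonucleotide reductase, had 693, 683 and 656 CPM in Meevs UVB embryos at 29 hpf, against 560.1, 549 and 514 CPM in Meevs mock embryos. Its groups did not overlap and it rose by 0.32 ± 0.09 (adjusted p 0.00431). Wild type UVB embryos had 607, 566 and 583 CPM, against 523, 523 and 528 CPM in mock embryos, separate as well but not called (0.16 ± 0.09). The call of rrm1 in Meevs was lost without Meevs mock replicate 3 (0.24, adjusted p 0.0660).

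The cyclin A2 gene ccna2 (ENSDARG00000011094, chromosome 14, 46354648 to 46374870) had 235, 219 and 208 CPM in Meevs UVB embryos at 29 hpf, against 180.0, 181 and 193 CPM in Meevs mock embryos. It rose by 0.26 ± 0.07 without overlap (adjusted p 0.00861). In wild type it had 183, 175 and 182 CPM after UVB, against 159, 168 and 161 CPM in mock embryos, also separate and not called (0.15 ± 0.07). The call of ccna2 in Meevs was lost without Meevs UVB replicate 1 (0.17, adjusted p 0.135) or 2 (0.22, adjusted p 0.0582). The cyclin B2 gene ccnb2 (ENSDARG00000036180, chromosome 7, 30626378 to 30631119) had 31.6, 29.6 and 28.2 CPM in Meevs UVB embryos, against 25.1, 26.5 and 25.3 CPM in Meevs mock embryos. It rose by 0.22 ± 0.09, just inside the threshold (adjusted p 0.0483). Its wild type levels were 20.9, 21.2 and 20.5 CPM after UVB, against 18.4, 18.96 and 19.7 CPM in mock embryos, separate and not called (0.14 ± 0.09). The call of ccnb2 in Meevs was lost in 17 of the 24 fits that left out 1 library, with the lowest value, 0.13 (adjusted p 0.330), without Meevs UVB replicate 1.

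The kinetochore motor gene cenpe (ENSDARG00000063385, chromosome 1, 260039 to 296057) had 320.2, 329 and 303 CPM in Meevs UVB embryos at 29 hpf, against 287, 279 and 234 CPM in Meevs mock embryos, of which replicate 3 was the lowest. It rose by 0.25 ± 0.08 (adjusted p 0.0112), while in wild type it had 307, 284 and 325 CPM after UVB, against 312, 296 and 305 CPM in mock embryos, within the same range (0.00 ± 0.08). The rise of cenpe in Meevs was 0.11 without Meevs mock replicate 3 (adjusted p 0.279), and its call was also lost without Meevs UVB replicate 1 or 2 (0.0895 and 0.138) and with only the compared groups in the fit (0.108). The remaining rises were aurkb, for the kinase of the chromosomal passenger complex (0.21 ± 0.08, adjusted p 0.0405), and top2a, for the enzyme that untangles sister chromosomes (0.17 ± 0.06, adjusted p 0.0486). Both were lost with only the compared groups in the fit (adjusted p 0.155 for aurkb and 0.265 for top2a) and with the replicate block (0.0532 and 0.0567). The call of top2a was also lost with no filter on low counts and in most fits that left out 1 library, and that of aurkb in several. Without Meevs UVB replicate 2 the values were 0.13 for aurkb (adjusted p 0.294) and 0.11 for top2a (adjusted p 0.306).

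**Figure D3:**
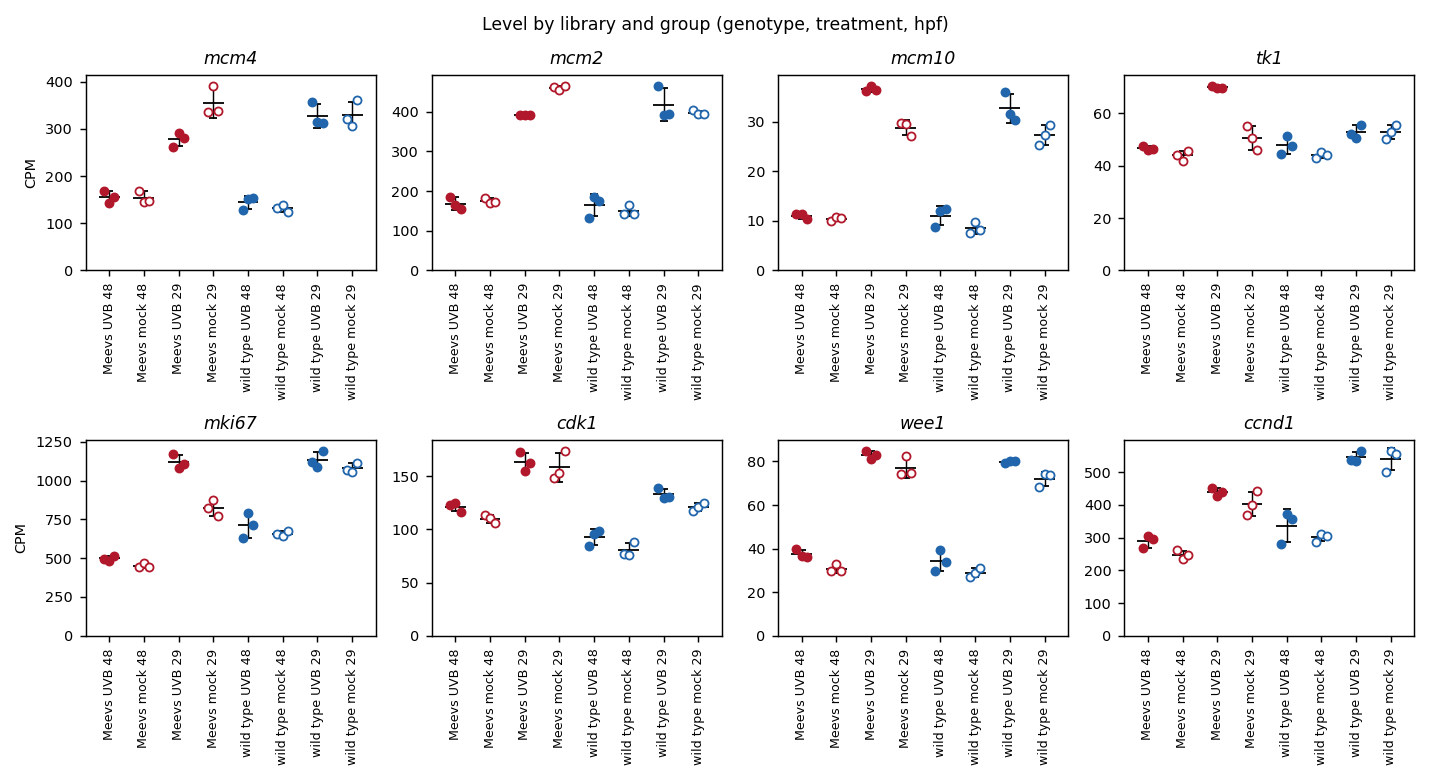
CPM of 8 genes in every library (points), with the group mean and SD in black, by genotype, treatment and age in hpf; red is Meevs, blue is wild type, filled is UVB and open is mock. At 29 hpf the Meevs UVB points of tk1 and mki67 lie above the Meevs mock points and those of mcm4 and mcm2 below them, while the wild type UVB and mock points of tk1, mcm4 and mcm2 overlap.

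Regulators of G1 and of the start of S phase were not called at 5 h in Meevs with all libraries in the fit. The cyclin E2 gene ccne2 (ENSDARG00000098529, chromosome 16, 40575742 to 40586793) had 103, 99.7 and 95.2 CPM in Meevs UVB embryos, against 80.9, 85.1 and 94.4 CPM in Meevs mock embryos. The groups were separate by less than 1 CPM, and the adjusted p was 0.109 (0.20 ± 0.09). For wild type the levels were 67.4, 70.6 and 74.9 CPM after UVB, against 65.9, 75.2 and 68.0 CPM in mock embryos, which overlapped. In Meevs ccne2 was called higher without wild type UVB replicate 1 at 24 h (adjusted p 0.0273). Its partner kinase gene cdk2 (ENSDARG00000026577, chromosome 11, 3301277 to 3308569) had 73.8, 64.5 and 66.4 CPM in Meevs UVB embryos, against 72.9, 73.7 and 78.8 CPM in Meevs mock embryos, with overlap and a log2 change of -0.14 ± 0.08. Without Meevs UVB replicate 1, the highest of its group, cdk2 was called lower (-0.24, adjusted p 0.0404). In wild type cdk2 had 61.4, 55.9 and 56.6 CPM after UVB, against 51.9, 56.7 and 52.2 CPM in mock embryos, again overlapping (0.11 ± 0.08). The values of ccnd1 were 451, 428 and 439 CPM in Meevs UVB embryos, against 369, 399 and 441 CPM in Meevs mock embryos, with overlap (0.12 ± 0.09, adjusted p 0.281). Neither wee1 (0.11 ± 0.08, adjusted p 0.300) nor cdk1 (0.04 ± 0.07, adjusted p 0.682) was called in Meevs at 5 h.

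The number called in Meevs at 5 h leaned on single libraries. Of the 10 genes 3, tk1, mki67 and mcm4, were called in every fit that left out 1 library. The count was 4 without Meevs UVB replicate 2, 6 without Meevs UVB replicate 1 and 6 without Meevs mock replicate 3.

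In wild type at 5 h none of the 41 genes was called, against 12.7% of all tested genes, by edgeR or by DESeq2. Of the 41 genes 2 had an unadjusted p under 0.05, beside 5880 of 22340 tested genes. The median log2 change was 0.07 for the 41 genes, and the 95% intervals of single genes reached from -0.66 for rrm2 on chromosome 19 to 0.45 for mcm10. SEs were 0.06 to 0.22, so the size of change that could be called differed between the genes. Without wild type UVB replicate 1 at 24 h, or without the 4 libraries that stood apart, mcm10 was called.

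**Figure D4:**
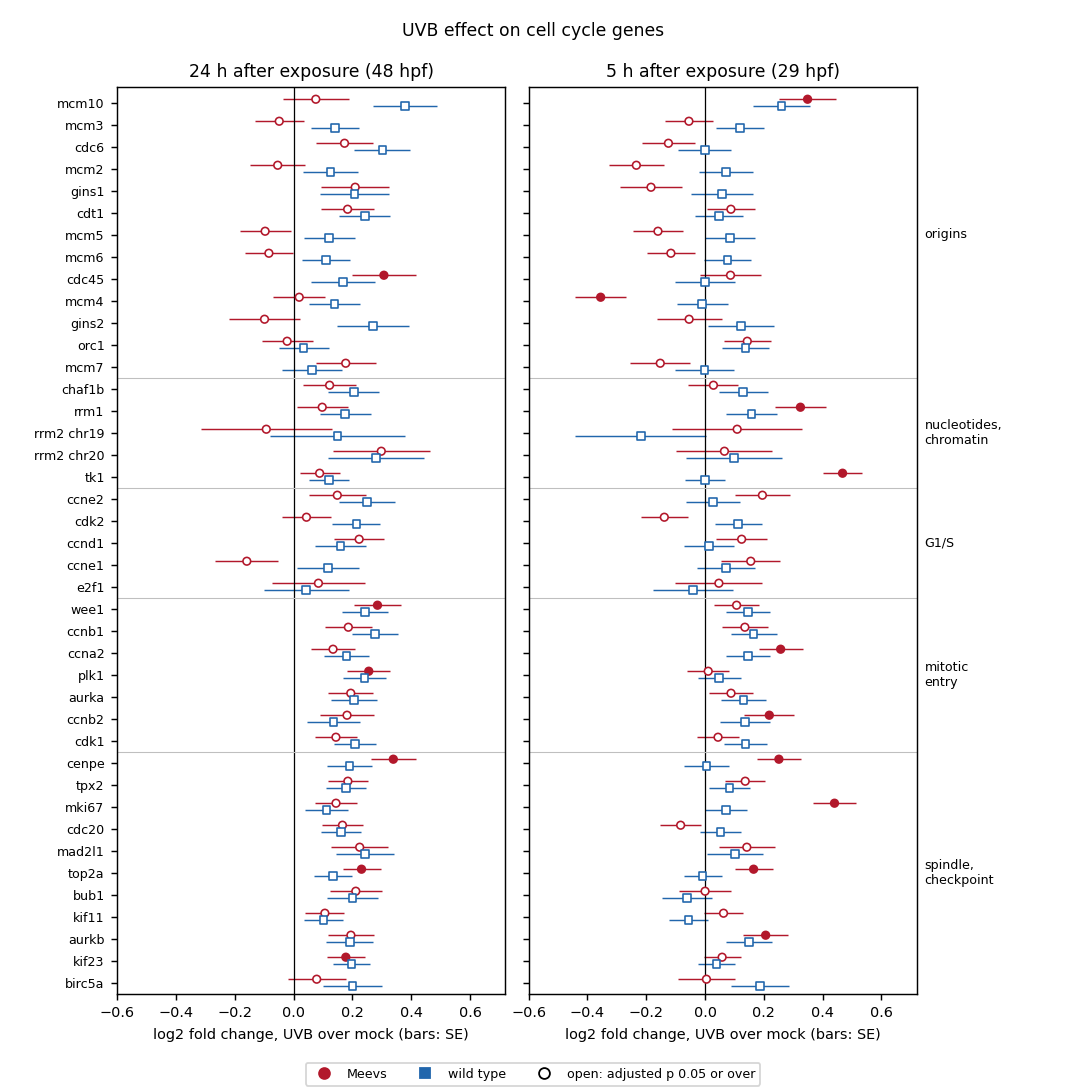
Log2 fold change of UVB over mock for each gene (x axis) with its SE, at 24 h at the left and 5 h at the right, Meevs as red circles and wild type as blue squares, filled where the adjusted p is under 0.05. At 5 h the Meevs points spread from mcm4 at -0.36 to tk1 at 0.47 and the wild type points are all open, and at 24 h every wild type point lies above 0, also open.

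The gene of the kinase inhibitor p21 and some other p53 arrest genes rose in the same embryos. The p21 gene cdkn1a had 57.0, 52.9 and 48.6 CPM in Meevs UVB embryos at 5 h, against 3.97, 3.35 and 2.96 CPM in Meevs mock embryos. In wild type it had 23.3, 23.6 and 23.7 CPM after UVB, against 3.20, 4.13 and 3.76 CPM in mock embryos. The log2 changes were 3.94 ± 0.16 in Meevs and 2.67 ± 0.15 in wild type, and the genotype difference, 1.27 ± 0.23, was called (adjusted p 0.00101). Of all tested genes 19.1% were called higher and 15.3% lower in Meevs, and 12.7% in either direction in wild type. In the list of 29 inhibitor and p53 arrest genes, 17 were higher and 2 lower in Meevs, and 10 were higher and 1 lower in wild type. These included gadd45aa, a damage-induced growth arrest gene (3.43 ± 0.13 in Meevs, 2.10 ± 0.13 in wild type), and phlda3, a p53 target (2.39 ± 0.11 and 1.20 ± 0.11).

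Further replication and mitosis genes also moved both ways at 5 h in Meevs. In Meevs 19.1% of all tested genes were called higher and 15.3% lower. Of the 49 other replication genes 9 were higher and 4 lower, so neither share exceeded that of all tested genes. The rises were led by tipin, of the fork protection complex (0.53 ± 0.08), and orc3, of the origin recognition complex (0.45 ± 0.09). The falls included prim2, for the large primase subunit (-0.47 ± 0.10), and gins4, for a further GINS subunit (-0.35 ± 0.09). Of the 65 other mitosis genes 22 were higher and 5 lower. The condensin genes ncapd3 (0.49 ± 0.07), ncapg (0.42 ± 0.06) and smc2 (0.39 ± 0.07) were among the higher, and cita, for the citron kinase of cytokinesis, was lower (-0.69 ± 0.13). In wild type, where 12.7% of all tested genes were called, 3 replication genes were called, all higher. They were tipin at 0.48 ± 0.08, orc3 at 0.47 ± 0.09 and pole2, for a DNA polymerase epsilon subunit, at 0.28 ± 0.09. The wild type calls among the other mitosis genes were bub3, a checkpoint gene (0.26 ± 0.08), and sass6, a centriole gene (0.28 ± 0.08). Of the 27 other cyclins, kinases and damage checkpoint genes, 10 were higher and 1 lower in Meevs, and none was called in wild type. There 4 of the 27 had an unadjusted p under 0.05, beside 5880 of 22340 tested genes.

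At 24 h after exposure, the called changes in Meevs were all rises and were mostly of mitosis genes. Of the 41 genes 6 were called higher and none lower, against 11.5% and 8.84% of all tested genes, so that 14.6% of the set was called beside 20.4% of all tested genes. The median log2 change was 0.18 for the mitosis set and 0.08 for the S phase set, against 0.00 over all tested genes, and all 17 mitosis genes lay above 0 beside 13 of the 21 S phase genes. The gene cenpe had 175, 175 and 181 CPM in Meevs UVB embryos at 48 hpf, against 144, 145 and 130.5 CPM in Meevs mock embryos. It rose by 0.34 ± 0.08 without overlap (adjusted p 0.00193). In wild type it had 187, 223 and 214 CPM after UVB, against 178, 180.3 and 188 CPM in mock embryos, with replicate 1 of the exposed group inside the mock range (0.19 ± 0.08).

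Outside the mitosis set, wee1 had 39.6, 36.4 and 36.3 CPM in Meevs UVB embryos at 48 hpf, against 29.6, 32.8 and 29.7 CPM in Meevs mock embryos. It rose by 0.29 ± 0.08 (adjusted p 0.0117), with no overlap. Wild type UVB embryos had 29.9, 39.2 and 33.9 CPM, against 26.9, 28.9 and 31.2 CPM in mock embryos, where only replicate 1 after UVB fell inside the mock range (0.24 ± 0.08). The other called genes in Meevs were plk1 (0.26 ± 0.07, adjusted p 0.0126), top2a (0.23 ± 0.06, adjusted p 0.0111), kif23 (0.18 ± 0.06, adjusted p 0.0481) and the helicase activator cdc45 (0.31 ± 0.11, adjusted p 0.0478). The calls of kif23 and cdc45 were lost with DESeq2 (adjusted p 0.0701 and 0.0675), and kif23 was at 0.11 without Meevs mock replicate 3 (adjusted p 0.341). Without Meevs UVB replicate 2, plk1 was at 0.17 (adjusted p 0.146). Of these 6 calls cenpe alone was made in every fit that left out 1 library. The count was 1 without Meevs mock replicate 1, 1 without Meevs mock replicate 3 and 3 without Meevs UVB replicate 2.

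The genes that led at 5 h in Meevs did not stand out at 24 h. At 48 hpf tk1 had 47.6, 45.9 and 46.3 CPM in Meevs UVB embryos, against 44.2, 41.9 and 45.5 CPM in Meevs mock embryos, separate but not called (0.09 ± 0.07). The level of mki67 was 497, 483 and 516 CPM after UVB, against 441, 471 and 442 CPM in mock embryos, again separate and not called (0.14 ± 0.07). That of mcm4 was 168, 143 and 156 CPM after UVB, against 169, 144 and 148 CPM in mock embryos, with full overlap (0.02 ± 0.09).

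The change of the UVB effect between the times was tested in Meevs, where 1 gene of the 41 was called higher at 24 h than at 5 h and 2 lower, against 15.1% and 14.3% of all tested genes. The difference, 24 h minus 5 h, was -0.38 ± 0.10 for tk1 (adjusted p 0.0035), -0.30 ± 0.10 for mki67 (adjusted p 0.0292) and 0.37 ± 0.12 for mcm4 (adjusted p 0.0235). The count of 3 became 7 without wild type UVB replicate 1 at 24 h, 5 without Meevs mock replicate 1 at 5 h and 6 without Meevs UVB replicate 3 at 24 h. The call of mcm4 was lost without Meevs UVB replicate 1 at 5 h (adjusted p 0.0638), Meevs mock replicate 2 at 5 h (0.0854), Meevs UVB replicate 1 at 24 h (0.0741) or Meevs mock replicate 2 or 3 at 24 h (0.0687 and 0.0557). That of mki67 was lost without Meevs UVB replicate 1 at 5 h (0.0783), Meevs mock replicate 3 at 5 h (0.0814), Meevs UVB replicate 2 at 24 h (0.0714) or Meevs mock replicate 2 at 24 h (0.0726).

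In wild type at 24 h none of the 41 genes was called by edgeR, against 2.24% of all tested genes, and DESeq2 called none. All 41 log2 changes were above 0, between 0.03 and 0.38, beside 11160 of 22340 tested genes above 0. Of the 41 genes 21 had an unadjusted p under 0.05, beside 3075 of all tested genes. Their median log2 change was 0.18, against 0.15 in Meevs at 24 h. In Meevs 15 of them had an unadjusted p under 0.05, beside 7218 of all tested genes. The lack of calls in wild type therefore does not show a smaller change than in Meevs. The 41 genes come from the same libraries and are not independent. The largest log2 change was that of mcm10, which had 8.77, 12.03 and 12.4 CPM in wild type UVB embryos at 48 hpf, against 7.55, 9.72 and 8.24 CPM in wild type mock embryos (0.38 ± 0.11, adjusted p 0.0710). Its exposed replicates 2 and 3 lay above all mock libraries and replicate 1 between them.

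Replicate 1 of the wild type UVB group at 24 h, which stood apart on the principal components, was low over the whole set. Its S phase value was -0.90, against -0.50 and -0.51 in the other exposed replicates and -0.87 to -0.66 in wild type mock libraries. For mitosis its value was -0.56, against -0.30 and -0.34 in the other exposed replicates and -0.65 to -0.50 in wild type mock libraries. With this library left out, 15 of the 41 genes were called, all higher, against 3.29% of all tested genes called in either direction and 2.17% higher, and the median log2 change was 0.27. With all 4 libraries that stood apart left out, an alternative added after seeing the data, 21 were called, all higher, with a median of 0.25. Of all tested genes 5.27% were then called in either direction and 2.71% higher. Wild type UVB replicate 1 was low in these same genes, so leaving it out raises their change by construction. The counts of 15 and 21 are therefore no separate evidence of a rise. Without wild type mock replicate 2 at 24 h, mcm10 alone was called.

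The genotype difference of the UVB effect at 24 h was called for none of the 41 genes by edgeR or DESeq2, against 2.4% of all tested genes. It lay between -0.37 and 0.15 on the log2 scale, and 1 gene had an unadjusted p under 0.05, beside 2965 of 22340 tested genes. In wild type the change of the UVB effect between the times was called for none either, against 4.89% of all tested genes, and DESeq2 called none. For this change 2 of the 41 genes had an unadjusted p under 0.05, beside 3912 of 22340 tested genes. Without wild type UVB replicate 1 at 24 h, cdc6 and ccne2 were called higher at 24 h than at 5 h.

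At 24 h in Meevs the companion lists held rises and no called falls, against 11.5% of all tested genes called higher and 8.84% lower. Of the 65 other mitosis genes 20 were higher and none lower, led by anln, a cytokinesis scaffold gene (0.32 ± 0.06), ncapg (0.37 ± 0.07), the spindle checkpoint kinase gene ttk (0.35 ± 0.07) and ncapd3 (0.36 ± 0.08). Of the other replication genes 5 of 49 were higher and none lower, and of the other cyclins, kinases and checkpoint genes 2 of 27 were higher and none lower. Neither of these lists was called higher more often than all tested genes. Of the 29 inhibitor and p53 arrest genes 14 were higher and none lower. The replication genes included e2f8, a repressor of E2F targets (0.44 ± 0.09), and pola1, for the catalytic subunit of DNA polymerase alpha (0.27 ± 0.08). In wild type 3 mitosis genes were called higher, against 2.24% of all tested genes called in either direction. They were anln (0.27 ± 0.06), kif20a (0.30 ± 0.07) and prc1a, a midzone microtubule gene (0.30 ± 0.07). No other replication gene was called there by edgeR. Of the 49 genes 18 had an unadjusted p under 0.05, beside 3075 of 22340 tested genes. The gene cdkn1a was still raised, at 10.3, 10.1 and 12.6 CPM in Meevs UVB embryos at 48 hpf, against 2.73, 2.30 and 1.35 CPM in Meevs mock embryos. Wild type UVB embryos had 6.48, 7.63 and 8.54 CPM, against 1.26, 2.10 and 2.28 CPM in mock embryos, also without overlap.

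Markers of differentiated neurons moved the other way at 24 h. In Meevs 12 of 19 postmitotic neuron markers were called lower after UVB and none higher, against 8.84% and 11.5% of all tested genes. Their median log2 change was -0.37, and their summed level was 2694.0 to 2918.0 CPM in UVB libraries, against 3554.1 to 3689.7 CPM in mock libraries. In wild type none was called by edgeR, against 2.24% of all tested genes. There 10 of the 19 had an unadjusted p under 0.05, beside 3075 of 22340 tested genes. The wild type median was -0.17 and the summed level was 3177 to 3488 CPM after UVB, against 3604 to 3842 CPM in mock embryos. The other marker lists held fewer calls. In Meevs 3 of 19 progenitor markers were higher and 2 lower, and 2 of 15 muscle markers were lower and none higher. Of 8 germ cell markers none was called in Meevs, although all 8 lay above 0, with a median of 0.31 and SEs of 0.23 to 0.75. No marker of these other lists was called in wild type. On the first principal component of all genes, which holds 59.0% of the variance and orders the libraries by age, the Meevs UVB libraries at 48 hpf lay at 50.9 to 61.5, against 72.8 to 75.9 in Meevs mock libraries. Wild type UVB libraries lay at 65.6 to 84.8, against 83.6 to 94.1 in wild type mock libraries. The Meevs groups did not overlap, the wild type groups did, and the 29 hpf libraries lay between -88.8 and -55.6. The component includes the genes described here. The part of these shifts in the rises of the mitosis genes was not tested.

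Mock embryos of the genotypes differed in much of the set, with more genes higher than lower in Meevs. At 29 hpf 20 of the 41 genes were higher and 5 lower in Meevs, against 24.5% and 23.2% of all tested genes. At 48 hpf 25 were higher and 4 lower, against 26.5% and 26.2%. The median log2 difference, Meevs over wild type, was 0.18 at 29 hpf and 0.23 at 48 hpf, against 0.03 and 0.02 over all tested genes and 0.10 and 0.11 over genes of similar span. Since each genotype is 1 library series, these values hold the series difference as well.

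The chromosomal passenger genes were among the highest in Meevs. The level of aurkb (ENSDARG00000037640, chromosome 14, 240487 to 246342) was 105, 108 and 101 CPM in Meevs mock embryos at 48 hpf, against 56.6, 57.6 and 60.5 CPM in wild type mock embryos. At 29 hpf it was 156, 147 and 176 CPM in Meevs mock embryos, against 92.8, 101 and 91.4 CPM in wild type mock embryos. The genotypes did not overlap at either time, at 0.85 ± 0.08 at 48 hpf and 0.75 ± 0.08 at 29 hpf. Its partner birc5a differed by 0.66 ± 0.10 at 48 hpf and 0.57 ± 0.10 at 29 hpf, and the checkpoint gene mad2l1 by 0.75 ± 0.10 and 0.57 ± 0.10. In the S phase set the GINS genes were higher, gins2 by 0.71 ± 0.12 at 48 hpf and 0.53 ± 0.11 at 29 hpf, and gins1 by 0.50 ± 0.12 and 0.49 ± 0.11. Outside both sets, cdk2 was higher by 0.42 ± 0.08 and 0.49 ± 0.08, and wee1 was not called at 48 hpf (0.08 ± 0.08) or 29 hpf (0.10 ± 0.08).

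The genes lower in Meevs included proliferation and G1 genes. For mki67 the difference was -0.54 ± 0.07 at 48 hpf, with 441, 471 and 442 CPM in Meevs mock embryos, against 655, 643 and 677 CPM in wild type mock embryos. At 29 hpf it was -0.39 ± 0.07, and the groups did not overlap at either time. The cyclin D1 gene ccnd1 was lower by 0.28 ± 0.09 at 48 hpf and by 0.42 ± 0.09 at 29 hpf. The spindle genes bub1 (-0.23 ± 0.09 at 48 hpf, -0.27 ± 0.09 at 29 hpf) and cenpe (-0.38 ± 0.08 and -0.19 ± 0.08) were lower at both times. The transcription factor gene e2f1, an activator of S phase genes, was called at 29 hpf (-0.56 ± 0.14, adjusted p 0.00238) and not at 48 hpf (-0.29 ± 0.15, adjusted p 0.111). In all, 6 of the 25 calls at 29 hpf (bub1, ccna2, cdc45, cdc6, cenpe and mcm7) and 9 of the 29 at 48 hpf (bub1, cdc45, cdc6, cdt1, kif23, mcm10, mcm4, mcm6 and tpx2) were lost in at least 1 of the fits that left out 1 library. Of those given above, at 29 hpf cenpe was lost without Meevs mock replicate 3 (adjusted p 0.297) or wild type mock replicate 1 or 3 (0.109 and 0.0784), and bub1 without Meevs mock replicate 3 (0.0822) or wild type mock replicate 3 (0.0517). At 48 hpf bub1 was lost without Meevs mock replicate 1 or 2 (0.0535 and 0.147) or wild type mock replicate 3 (0.136).

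The pair of rrm2 genes, for the small subunit of ribonucleotide reductase, differed between genotypes and between replicates. The gene on chromosome 19 (ENSDARG00000078069, 47564890 to 47571808) had 194, 310.4 and 356 CPM in Meevs mock embryos at 29 hpf, against 143, 119.9 and 113 CPM in wild type mock embryos. It was higher in all Meevs mock libraries, by 1.19 ± 0.22 at 29 hpf and by 1.53 ± 0.23 at 48 hpf. The gene on chromosome 20 (ENSDARG00000020711, 29492469 to 29499426) had 272, 212 and 252 CPM in Meevs mock embryos at 29 hpf, against 246, 320.1 and 289 CPM in wild type mock embryos, which overlapped (-0.21 ± 0.16). After UVB at 29 hpf the replicate with the least of one had the most of the other in both genotypes. In wild type UVB replicate 3 at 29 hpf the chromosome 19 gene had 57.6 CPM beside 133 and 134 in the other replicates, and the chromosome 20 gene 374 CPM beside 288 and 253. The summed level of both varied less, at 431.6 CPM in that library beside 420.2 and 386.9 CPM. Summed, they had 466.3, 522.7 and 608.1 CPM in Meevs mock embryos at 29 hpf, against 388.5, 439.99 and 402.1 CPM in wild type mock embryos, without overlap. The sources used here do not give how reads that match both genes were counted, so each gene's own values are uncertain. The part of the counting in these differences was not tested.

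Across the 41 genes, which are not independent replicates, the genotype difference was higher for genes of short span. Spearman's rho of the log2 difference with gene span was -0.49 at 48 hpf and -0.48 at 29 hpf (n = 41 genes, all from the same libraries), against -0.27 and -0.21 over the 13840 genes of the same span range. The spans lay between 3763 and 36019 bp with a median of 12094 bp, and the part of span in the genotype difference was not tested. Counts at loci with overlapping neighbours are uncertain. For 8 genes the neighbour is on the other strand (cdc6, mcm3, orc1, cdc45, cdt1, ccne2, plk1 and mad2l1), and the sources used here do not give the strand setting of the counting. For 4 genes it is on the same strand (both rrm2 genes, tpx2 and mcm7), where the strand cannot tell the genes apart.

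**Figure D5:**
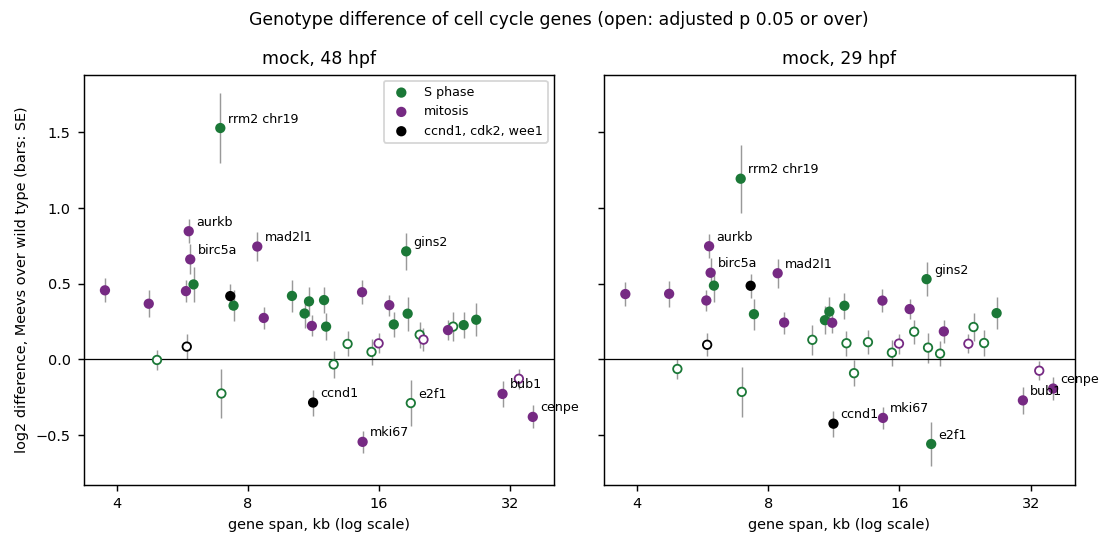
Log2 difference of Meevs over wild type mock embryos (y axis) with its SE against gene span in kb (log x axis), at 48 hpf at the left and 29 hpf at the right; green marks S phase genes, purple mitosis genes and black ccnd1, cdk2 and wee1, filled where the adjusted p is under 0.05. The gene rrm2 on chromosome 19 and aurkb lie highest at both times, and mki67 lies lowest at 48 hpf.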

How the data were processed

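Whole-embryo polyA RNA of 24 libraries was sequenced with a directional kit, per the labels' protocols. The deposited table gives raw, unnormalised read counts for each gene, and from it come the gene symbols used here. Gene positions come from the gene annotation deposited with it. GEO's record credits cutadapt 1.16, STAR 2.7.9a, featureCounts 1.6.3, DESeq2 1.36.0 and the GRCz11 assembly, per the submitters' processing notes, without their settings. Each column was assigned to its library through the label names.

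Library sizes were scaled with TMM, and genes were kept by filterByExpr on the groups. With edgeR 4.0.16 (R 4.3.3), 1 design holding a mean for each of the 8 groups covered the 24 libraries, and 15 contrasts were drawn and judged by quasi-likelihood F. Benjamini-Hochberg adjustment ran across the 22340 tested genes. The SE is the log2 fold change divided by the square root of F, and 95% intervals are 1.96 SE to each side. The fit was tested on simulated data. The chi-square per degree of freedom between replicates was 4.28 to 23.2, so each library counted as 1 replicate. Same-numbered replicates did not deviate together over all pairs, although those of wild type at 24 h each correlated best with their own number.

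Alternatives were no filter on low counts, DESeq2 size factors, DESeq2 1.42.0, only the compared groups in the fit, the replicate number as a block, leaving out each library and, added after seeing the data, leaving out the 4 libraries that stood apart. The genes, the companion lists and the cell type markers were chosen with earlier results of these data known. Full statistics are given for the called members with the 3 largest rises and falls in each set, called members moving against their set, ccnd1, wee1, cdk2 and called interactions. Library values are given for 14 members (the 2 of each role with the smallest adjusted p at 5 h in Meevs, with ccnd1, wee1, mcm2 and cdk1), and for up to 4 called companion genes the log2 change. The library values of aurkb and the rrm2 genes, and the statistics of aurkb and top2a at 5 h, kif23 at 24 h and birc5a and kif23 over time, lie outside that rule and were chosen after their values were seen, as were genes named only because an alternative gained or lost their call. The genes ccnd1, asf1ba, cdc25b and cdc25d stand in more than 1 list.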

Additional observations from a re-analysis of the deposited data

Results flagged for a closer look

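The effects that differed between groups by their own test are given here as values. The UVB effect at 5 h was larger in Meevs than in wild type for tk1, by 0.47 on the log2 scale, and for mki67, by 0.37. In Meevs the UVB effect at 24 h minus that at 5 h was -0.38 for tk1, -0.30 for mki67 and 0.37 for mcm4.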

How the results depend on the processing

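Across 238 called results of single members and 7140 alternative values, 6915 kept direction and call, 225 kept the direction but lost the call and 0 reversed. The losses were uneven. For UVB in Meevs the call was lost in 64 of 300 values at 5 h and 55 of 180 at 24 h. For time in mock embryos it was lost in 9 of 1230 values in Meevs and 0 of 1230 in wild type. Calls that an alternative gained are not in this tally. Apart from fits that left out 1 library, the largest shift of the median of all genes was -0.05 on the log2 scale. It arose for UVB in Meevs at 5 h with only the compared groups in the fit. The set medians there were themselves 0.05 for S phase and 0.14 for mitosis with all libraries. Leaving out a library outside a contrast also moved values. Without Meevs mock replicate 1 at 24 h, top2a in Meevs at 5 h was at 0.12, below its value with all libraries. The part of such shifts in the lost and gained calls was not tested. With only the compared groups in the fit, 1 gene was called for the genotype difference of the UVB effect at 5 h. Without the 4 libraries that stood apart, 4 were called for it (2 higher, 2 lower), 6 for the change of the UVB effect between times in Meevs, 2 for that in wild type, 1 for UVB in wild type at 5 h and 21 at 24 h. Beside those 21, 5.27% of all tested genes were called, 2.71% higher. Removing wild type UVB replicate 1, low in these genes, raises their change by construction, so the 21 are no separate evidence. Shares of all tested genes are not given for the other counts.

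Leaving out each library in turn gave 40 to 41 calls for time in Meevs mock embryos, 41 to 41 in wild type mock, 39 to 41 in Meevs UVB and 40 to 41 in wild type UVB embryos. UVB gave 4 to 12 calls in Meevs and 0 to 1 in wild type at 5 h, and 1 to 9 in Meevs and 0 to 15 in wild type at 24 h. The 15 was reached without wild type UVB replicate 1, where 3.29% of all tested genes were called and the same caveat holds. Shares of all tested genes are not given for the other ranges. The genotype difference of the UVB effect gave 1 to 2 calls at 5 h and 0 to 0 at 24 h, and the change between times 2 to 7 in Meevs and 0 to 2 in wild type. Genotype in mock embryos gave 19 to 27 calls at 29 hpf and 22 to 30 at 48 hpf, and its change over time 0 to 0.

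Same-numbered replicates did not deviate together over all groups: over 12 same-numbered pairs of a UVB and a mock library the correlations of their deviations were -0.0828 to 0.107, and 5 correlated best with their own number. These included each wild type pair at 24 h (replicates 1, 2 and 3 at 0.107, 0.0566 and 0.0694). With the replicate block, 7 genes were called for UVB in Meevs at 5 h, 4 at 24 h and 28 for genotype at 48 hpf, and the other counts equalled those without it. The 3 libraries per group limit what small changes can be detected.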
